A study of Danio rerio with 18 samples.

Results

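Whole zebrafish larvae exposed to perfluorobutanesulfonic acid (PFBS) at 3500 µM were compared with unexposed larvae of the same age. The comparison used 6 of the 18 samples of the study, 3 exposed and 3 control, chosen by their labelled concentration. All were AB wild-type larvae taken whole at 120 hours post fertilisation (hpf), so every tissue contributed to each library. Controls carried the label Control and the exposed samples the label of PFBS at 3500 µM, and no other allele or agent was named. The other groups, of 3 samples each, had received 7, 70, 700 or 7000 µM PFBS, and the 700 and 7000 µM groups served below as neighbours in concentration. How many larvae made up a sample, the vehicle and the length of exposure were not given in the sources used here. No label places the samples of a group in separate clutches or pools, so p-values reflect the scatter among these samples alone, and that scatter may be technical. The labels give the question no further than a comparison of expression between groups.

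PFBS is a short-chain perfluorinated sulfonate surfactant, used in place of longer-chain relatives such as perfluorooctanesulfonic acid. Compounds of this class bind serum albumin and fatty acid binding proteins, and in mammals several of them activate the nuclear receptor PPARα, which drives fatty acid oxidation genes. Immediate early genes, many of them transcription factor genes, are switched on within minutes of a stimulus, without new protein synthesis. Neurons use some of them after activity. The larval liver secretes plasma proteins, complement and lipoproteins, and its expression is read in whole larvae through genes that other tissues hardly use.

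Control libraries held 18720802, 14937147 and 17114017 counts and exposed libraries 17891964, 16040209 and 18656406. Counts were summed over the transcripts of each gene, and levels are given as CPM, counts relative to the library size after TMM scaling. Within each group, every pair of replicates differed beyond counting noise, with a chi-square per degree of freedom of 5.79 or more. Marker genes of muscle, epidermis, blood, eye, liver and gut were all read, as the label of a whole body implies. Among controls, replicate 3 stood apart in several lists. Hepatocyte genes took 0.135% of its counts against 0.187% and 0.189% in the other controls, lens crystallins 1.48% against 2.21% and 2.16%, exocrine pancreas enzymes 0.0121% against 0.0266% and 0.0345%, and erythrocyte genes 0.220% against 0.265% and 0.282%. Ribosomal protein genes took 8.59% there against 7.59% and 7.32%. On the first principal component (29.9% of variance) it lay at -14.5 against -41.3 and -37.8, and the exposed libraries at 1.66, -5.67 and 24.3. Among exposed samples, replicate 2 lay nearest the controls on the second principal component (15.5% of variance), at 18.2 against 39.8 and 50 for the others and 3.43 to 5.34 for controls.

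Of 21046 genes with enough counts to test, 1994 (9.47%) differed between 3500 µM and control at an adjusted p under 0.05 in edgeR's quasi-likelihood test. There were 1082 higher (5.14% of genes tested) and 912 lower (4.33%), and 5683 genes had an unadjusted p under 0.05. Changes were mostly modest: 182 of the called genes were at least 2-fold higher and 200 at least 2-fold lower. In 1922 of the called genes all 3 exposed samples lay outside the control range. Over all genes tested, 16.2% had every exposed sample above every control and 13.5% had every one below. The median log2 fold change over all genes was 0.0118, and it was -0.0375 with upper quartile scaling, which called 754 genes higher and 1184 lower. With RLE size factors the split was 892 higher and 966 lower. Individual libraries weighed on the total. The count was 478 without control replicate 1, 643 without control replicate 2, 633 without exposed replicate 1, 596 without exposed replicate 3 and 3333 without exposed replicate 2.

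**Figure D1:**
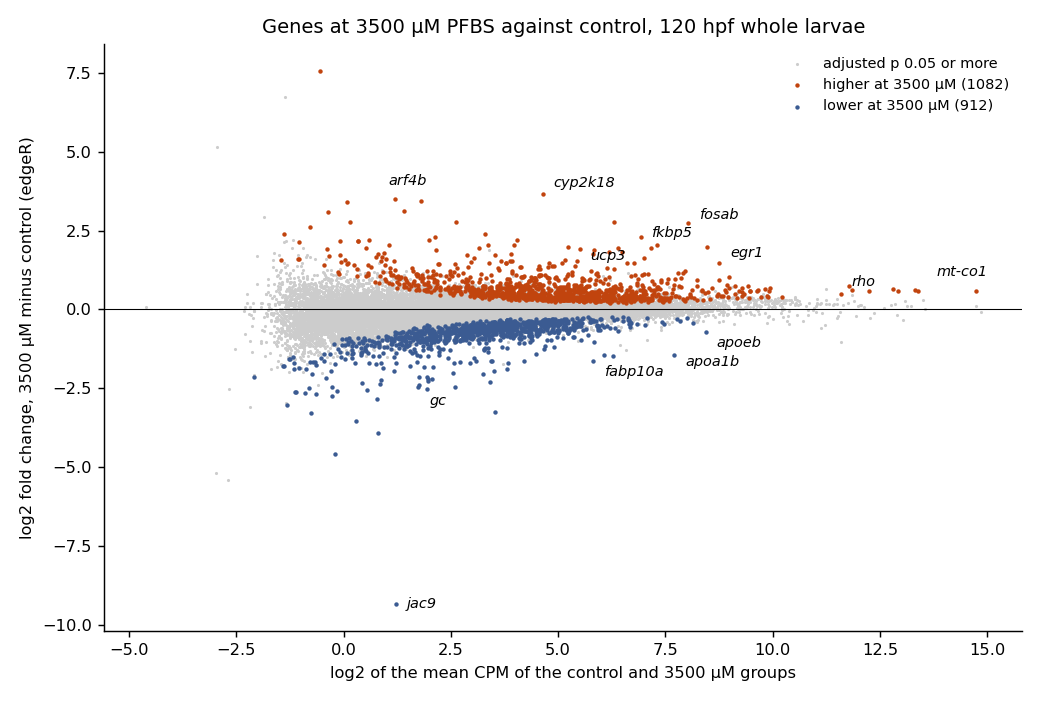
Each point is a gene tested for 3500 µM PFBS against control, with the log2 of its mean CPM over both groups on the x axis and the edgeR log2 fold change on the y axis. A gene with no count in either group is not drawn. Orange points are the 1082 genes called higher and blue points the 912 called lower at an adjusted p under 0.05, and labelled genes are described in the text. Called genes lie on both sides of 0, and most of them lie within 1 log2 unit of it.

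Among called genes with a gene name and at least 5 CPM in the higher group, the largest rise was in cyp2k18, a cytochrome P450 of family 2 whose zebrafish role is not settled (chromosome 3, 12710350 to 12715432, coordinates of the deposited table, whose build is not given in the sources used here). It measured 3.81, 4.56 and 2.71 CPM in controls and 45.1, 50.8 and 42.6 CPM at 3500 µM. No exposed library was near the control range. The log2 change was 3.65 ± 0.32 (edgeR adjusted p = 1.1e-05), and the call held whichever of the 6 libraries was left out. Here and below, ± values of log2 changes are SEs worked back from the F statistic of the edgeR test. The fit behind them covered all 18 libraries, with n = 3 a group. Means of cyp2k18 were 29.3 CPM at 700 µM and 34.01 CPM at 7000 µM, and neither passed a test against 3500 µM (edgeR adjusted p = 0.18 and 0.335). Other large rises were in ier2b, egr2a, fosab and fosb, immediate early genes, and in fkbp5, a glucocorticoid target, hspb9, a small heat shock protein, plac8.1, and srsf3a, a splicing factor. The 15 largest falls by the same rule were led by genes of secreted liver proteins, crp2, gc, itih3a, serpina1l and ttr among them.

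The gene lists are shown as a whole before each is described. A count of called members stands beside the 9.47% called over all genes tested. Lists near that share included the unfolded protein response (9.52%), transmitter genes (9.89%), intestine and endocrine pancreas genes (8.82%) and cytokine and NF-kB genes (8.7%).

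**Figure D2:**
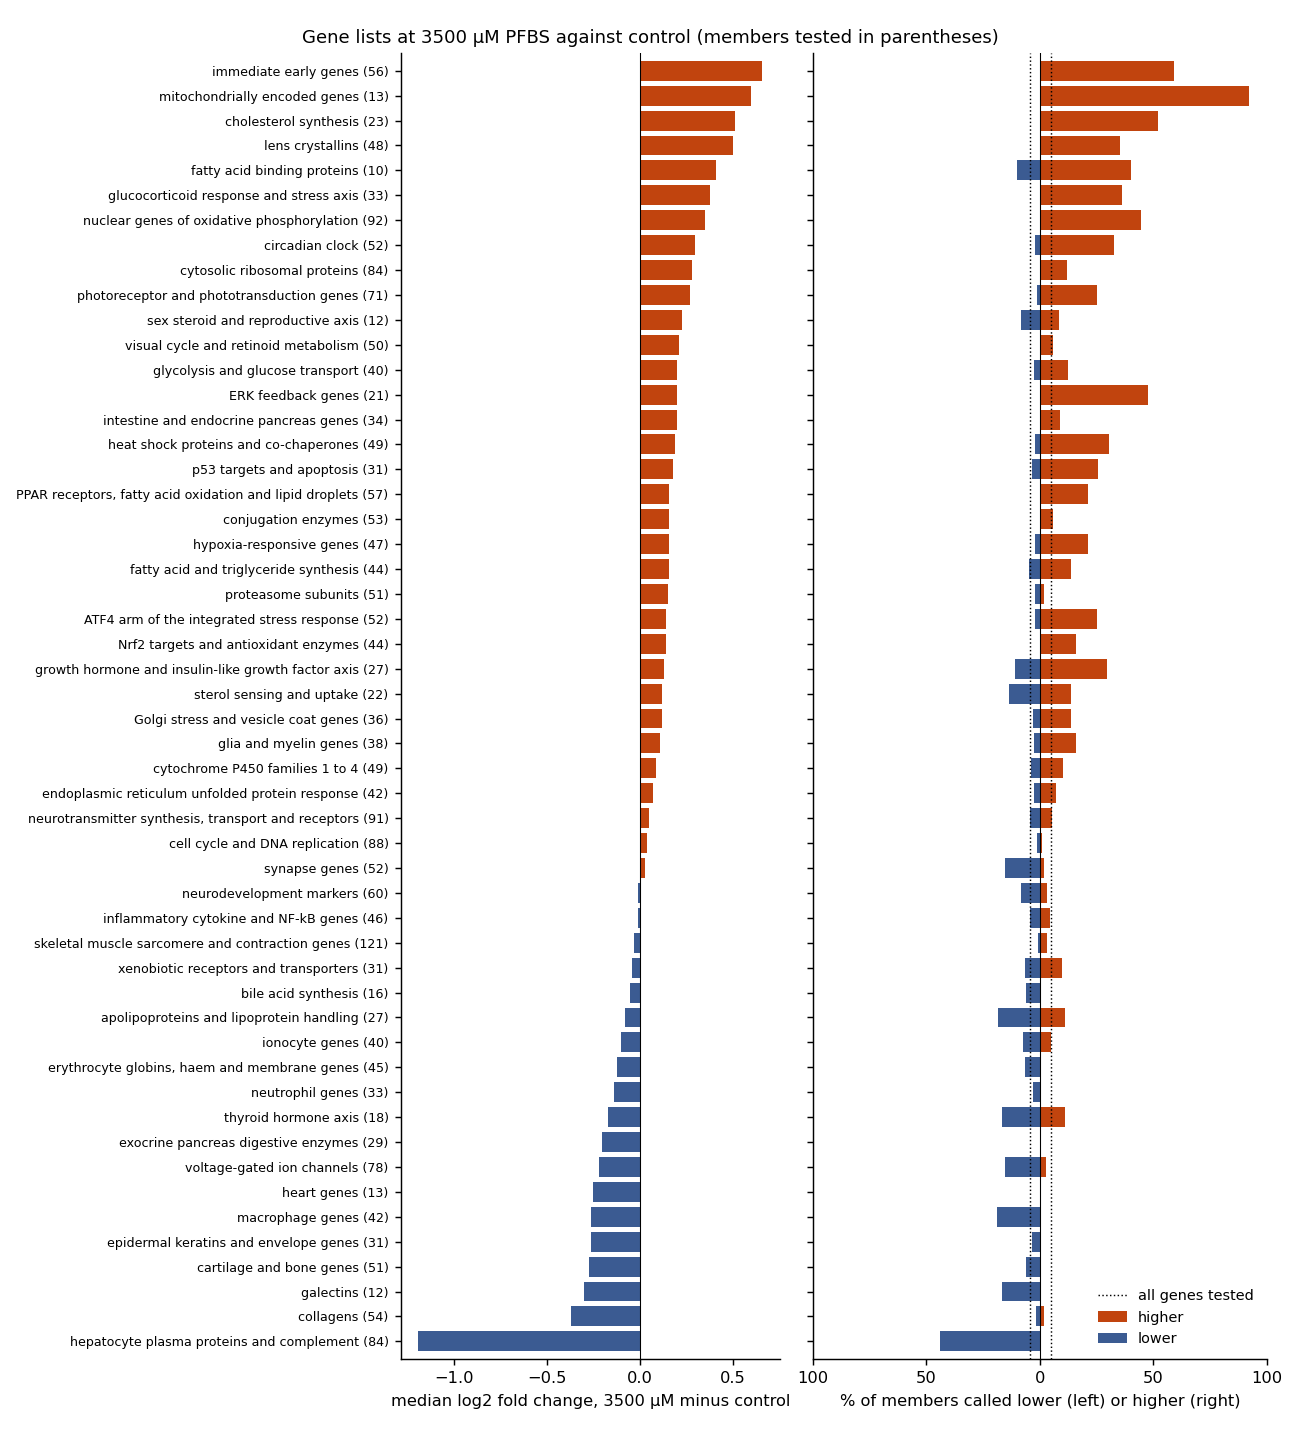
Left, bars give the median log2 fold change of 3500 µM minus control over the tested members of each of 52 gene lists, whose number stands in parentheses. Right, bars give the percentage of members called higher (orange) or lower (blue), and dotted lines mark the 5.14% and 4.33% of all genes tested. Immediate early genes have the highest median (0.66) and hepatocyte plasma proteins the lowest (-1.19).

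Immediate early genes were higher as a group at 3500 µM. Of 56 members tested, 33 rose and 0 fell, with a median log2 change of 0.66 beside 0.0118 over all genes. The fos gene fosab, a subunit of the AP-1 transcription factor, measured 72.0, 63.3 and 66.5 CPM in controls and 414, 758 and 183 CPM at 3500 µM. The groups did not overlap, and exposed replicate 2 was the highest and replicate 3 the lowest, an order seen also in npas4a, junbb, btg2 and cebpb. Its log2 change was 2.75 ± 0.39 (edgeR adjusted p = 0.00062). The zinc finger factor egr1, at 235, 237 and 213 CPM in controls and 623, 709 and 570.1 CPM at 3500 µM, was tighter across replicates, with a log2 change of 1.47 ± 0.14 (edgeR adjusted p = 2.35e-05). The activity-dependent neuronal factor npas4a measured 147, 137 and 149 CPM in controls and 470.5, 928 and 308 CPM at 3500 µM, and the groups did not overlap. The AP-1 partners junbb and junba rose by 1.95 ± 0.32 and 1.77 ± 0.28 log2, and the orphan nuclear receptor nr4a1 by 1.81 ± 0.22. The antiproliferative gene btg2 went from 68.6, 61.6 and 56.1 CPM to 220.0, 396 and 144 CPM, with every exposed library at least 2-fold above every control. Rises were seen also in cebpb (1.96 log2) and cebpd (0.79), C/EBP factors of acute phase and fat cells, in socs3a (1.03), a brake on cytokine signalling, and in ccn1 (1.19) and ccn2a (0.75), matricellular proteins. The most abundant members outside the call were btg1, at 243 CPM in controls and 291 at 3500 µM (edgeR adjusted p = 0.0889), and gadd45ba, at 130.4 and 161 CPM (edgeR adjusted p = 0.0881). Over the list, the mean log2(CPM + 1) lay above the control mean by 0.65, 1.17 and 0.36 in exposed replicates 1, 2 and 3.

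Many immediate early genes were lower at both neighbouring concentrations. Against 700 µM, where 1.14% of all genes tested were called higher at 3500 µM, 21 members were higher and 0 lower. At 7000 µM, where 3.84% of all genes were called lower than at 3500 µM, 29 members were lower and 0 higher. Here and below, counts of list members against the neighbours come from the fit of all 18 libraries only. Calls over all genes were fragile: the 350 against 700 µM became 11 without 700 µM replicate 1. The 1321 between 7000 and 3500 µM became 206 with only the compared libraries fitted. For egr1 the mean was 392 CPM at 700 µM, 634 at 3500 µM and 186 at 7000 µM, where it was 169, 153 and 234 CPM in the 3 libraries. For btg2 the means in that order were 72.3, 253 and 61.2 CPM. The list took 0.266 ± 0.00982% of control counts (SD, n = 3) and 0.508 ± 0.180% of those at 3500 µM, with 0.458, 0.707 and 0.359% in the replicates. An exact two-sided permutation test over samples gave p = 0.1, the smallest that 3 against 3 allows. With other settings the count of 33 was 20 without control replicate 1. The calls of fosab, egr1, npas4a, junbb, junba, nr4a1, btg2, cebpb, cebpd, ccn1 and ccn2a held whichever of the 6 libraries was left out. That of socs3a ended without 1 or more of control replicates 1 and 3 and 3500 µM replicates 1 and 2 (edgeR adjusted p up to 0.0715).

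Feedback genes of the ERK kinase pathway were higher in part. ERK carries growth factor signals to the nucleus and induces phosphatases and Sprouty proteins that switch it off. Of 21 members, 10 rose and 0 fell (median log2 change 0.20). The phosphatase dusp5 measured 16.9, 16.5 and 20.4 CPM in controls and 51.5, 58.0 and 40.3 CPM at 3500 µM, and the ETS factor etv5b 37.3, 35.5 and 37.5 CPM in controls and 77.3, 91.4 and 73.0 CPM at 3500 µM. For both genes every exposed library was above every control, and the log2 changes were 1.48 ± 0.18 and 1.13 ± 0.11 (edgeR adjusted p = 0.000134 and 2.88e-05). The phosphatases dusp1, dusp2, dusp4 and dusp6 rose by 0.72, 0.95, 0.81 and 0.48 log2, and the Sprouty genes spry4 and spry2 by 0.95 and 0.43. Members that did not pass included spred1, at 81.8 CPM in controls and 92.1 at 3500 µM, and dusp8a, at 65.3 and 57.1 CPM. The calls of dusp5, etv5b, dusp1, dusp2, dusp6, spry4 and spry2 held whichever of the 6 libraries was left out. That of dusp4 ended without control replicate 1 (edgeR adjusted p up to 0.0538).

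**Figure D3:**
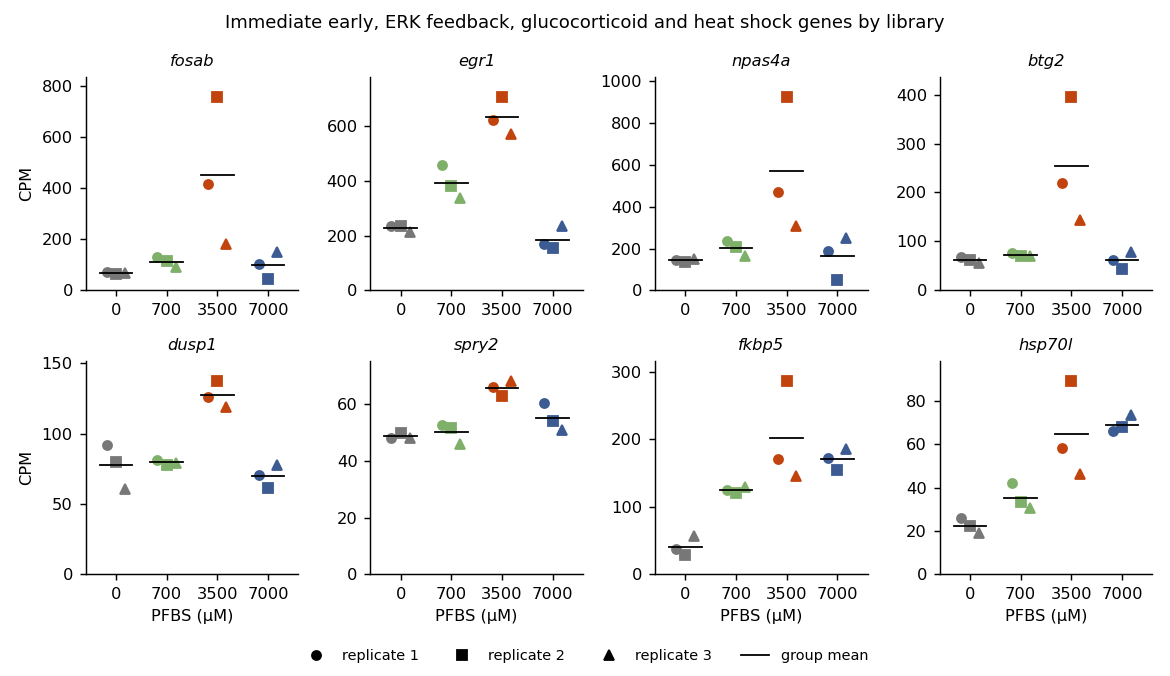
CPM of 8 genes in each library of the control (0), 700, 3500 and 7000 µM groups, with linear y axes from 0. Symbols give the replicate number and lines the group mean. Exposed replicate 2 at 3500 µM is the highest library for fosab, egr1, npas4a, btg2, dusp1, fkbp5 and hsp70l, and the immediate early genes are lower again at 7000 µM.

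Genes of the glucocorticoid response and stress axis were higher in part. The list holds targets of the glucocorticoid receptor, through which the stress hormone cortisol acts. It also holds other genes of the axis, such as those of cortisol inactivation. Of 33 members, 12 rose and 0 fell, with a median of 0.38. The receptor co-chaperone fkbp5 measured 37.6, 28.4 and 57.4 CPM in controls and 171, 287 and 146 CPM at 3500 µM. Its lowest exposed value was above 2 times the highest control value, and the log2 change was 2.29 ± 0.29 (edgeR adjusted p = 0.00017). The kinases sgk2b and sgk1 rose by 1.47 and 0.65 log2, tsc22d3, known as GILZ, by 0.82, the factor klf9 by 1.34 and the metallothionein mt2 by 0.55. For klf9 the groups overlapped, at 12.9, 20.4 and 12.8 CPM in controls and 32.4, 65.2 and 18.8 CPM at 3500 µM. Cortisol inactivation by hsd11b2 and its partner hsd20b2 had higher transcript levels too, by 0.66 and 0.71 log2. The receptor gene nr3c1 was at 66.1 CPM in controls and 65.0 at 3500 µM (edgeR adjusted p = 0.88). The gluconeogenic enzyme pck1, a classic target, was at 91.2, 94.9 and 75.0 CPM in controls and 160.4, 140.1 and 131 CPM at 3500 µM and did not pass (edgeR adjusted p = 0.099). The count of 12 was 4, 7 and 6 without control replicate 1, control replicate 2 and 3500 µM replicate 1 in turn. The calls of fkbp5, sgk2b and tsc22d3 held whichever of the 6 libraries was left out. Those of sgk1, klf9, mt2, hsd11b2 and hsd20b2 ended without 1 or more of them (edgeR adjusted p up to 0.224).

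The circadian clock runs on a loop in which CLOCK and BMAL drive per, cry and nr1d genes that in turn repress them. Of 52 clock genes, 17 rose and 1 fell, with a median of 0.30. The repressors nr1d2a and nr1d1 measured 134, 167 and 141 CPM in controls and 264, 491 and 235 CPM at 3500 µM, and 263, 342 and 283 CPM in controls and 527, 779 and 385 CPM at 3500 µM, respectively. Exposed replicate 2 was again the highest library, and no exposed value of either gene fell within its control range. The repressor bhlhe40 rose by 1.03 ± 0.17 log2 (edgeR adjusted p = 0.00172), the light-inducible genes per2 and cry1a by 0.75 and 0.79, and the repressor nfil3-5 by 0.63. The activator clocka fell by 0.50 ± 0.15, from 12.7, 11.58 and 12.1 CPM to 8.20, 10.8 and 6.84 CPM. The core genes per1b and per3 stood at 191 and 165 CPM in controls and 257 and 168 CPM at 3500 µM and did not pass. Zeitgeber times of collection were not given in the sources used here. The count of 17 was 7, 8 and 11 without control replicate 1, control replicate 2 and control replicate 3 in turn. The calls of nr1d2a, bhlhe40, per2 and cry1a held whichever of the 6 libraries was left out. Those of nr1d1, nfil3-5 and clocka ended without 1 or more of control replicates 1, 2 and 3 and 3500 µM replicates 1 and 3 (edgeR adjusted p up to 0.195).

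Heat shock genes encode chaperones that refold damaged proteins. Of 49 members, 15 rose and 1 fell, with a median of 0.19. The inducible hsp70l measured 26.0, 22.1 and 18.9 CPM in controls and 58.2, 89.3 and 46.2 CPM at 3500 µM, and small heat shock gene hspb9 4.50, 5.23 and 7.95 CPM in controls and 24.5, 34.4 and 22.7 CPM at 3500 µM. No exposed value of either gene overlapped the controls, and the log2 changes were 1.53 ± 0.18 and 2.205 ± 0.28 (edgeR adjusted p = 0.000134 and 0.000178). The near-identical copies hsp70.1, hsp70.2 and hsp70.3 rose by 1.71, 1.27 and 1.09 log2, and because reads can match several copies their separate values are uncertain. The mitochondrial chaperonin pair hspe1 and hspd1 rose by 0.53 and 0.32. In contrast hspb1 fell, from 48.9, 13.4 and 34.9 CPM, a wide control range, to 12.8, 11.603 and 11.8 CPM (log2 change -1.43, edgeR adjusted p = 0.00847). The most abundant chaperones did not pass: hspa8 was at 4073 CPM in controls and 4452 at 3500 µM, and hsp90ab1 at 3128 and 2982 CPM. The count of 15 was 9 and 9 without control replicate 2 and 3500 µM replicate 1 in turn. The calls of hsp70l, hspb9, hsp70.1 and hsp70.2 held whichever of the 6 libraries was left out. Those of hsp70.3, hspe1, hspd1 and hspb1 ended without 1 or more of them (edgeR adjusted p up to 0.115).

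Other stress pathways changed in single branches. In the ATF4 arm of the integrated stress response, which answers amino acid shortage and other insults, 13 of 52 genes rose and 1 fell (median 0.14). The glutathione-degrading enzyme chac1 measured 216, 209 and 200.2 CPM in controls and 375, 423 and 382 CPM at 3500 µM and the pseudokinase trib3 39.8, 36.5 and 38.59 CPM in controls and 64.2, 70.7 and 53.8 CPM at 3500 µM, with no overlap between groups. The folate enzyme mthfd1l fell by 0.70 log2. The factor itself, encoded by atf4a and atf4b, rose by 0.37 and 0.29 log2. Among transfer RNA synthetases, also targets, lars1b rose, though its call ended in 4 of the 6 fits with 1 library left out (edgeR adjusted p up to 0.0894). The synthetases aars1 and eprs1 were at 167 and 139 CPM in controls and 154 and 141 CPM at 3500 µM and did not pass. In the unfolded protein response of the endoplasmic reticulum 3 of 42 genes rose and 1 fell (median 0.07). That is 9.52% called, near the 9.47% of all genes tested. The 3 were the factor xbp1, the chaperone hspa5 and the disulfide isomerase pdia3, by 0.46, 0.31 and 0.27 log2. The calreticulin gene calr3b fell by 0.40. Among 36 Golgi and vesicle coat genes, 5 rose and 1 fell (median 0.12). The small GTPase arf4b was the exception in size, at 0.483, 0.198 and 0.412 CPM in controls and 3.88, 4.797 and 4.08 CPM at 3500 µM. The coat and vesicle genes sec23b, arf5, cope and tmed10 rose by 0.48, 0.33, 0.27 and 0.21 log2, and arf3b fell by 1.02. The log2 change of arf4b was 3.48 ± 0.27 (edgeR adjusted p = 3.14e-06). Its mean was 0.801 CPM at 700 µM and 18.5 CPM at 7000 µM, and 3500 µM differed from both (edgeR adjusted p = 0.000134 and 6.77e-06). The counts of 13 and 5 were 4, 5, 5 and 7 without control replicate 1, control replicate 2, 3500 µM replicate 1 and 3500 µM replicate 3 in turn, and 8 with only these 6 libraries fitted for the ATF4 genes, and 1, 2, 3, 1 and 2 without control replicate 1, control replicate 2, control replicate 3, 3500 µM replicate 1 and 3500 µM replicate 3 in turn, and 3 with RLE size factors, 3 with no low-count filter, 2 with only these 6 libraries fitted, 3 with only the top transcript of each gene and 2 with upper quartile scaling for the Golgi genes. The count of 3 higher in the unfolded protein response ran from 1 to 6 with 1 library left out (it was 1 with RLE size factors, 1 with no low-count filter, 1 with only these 6 libraries fitted, 1 with only the top transcript of each gene and 1 with upper quartile scaling). The calls of chac1, trib3, xbp1 and arf4b held whichever of the 6 libraries was left out. Those of atf4a, atf4b, hspa5, pdia3, mthfd1l, calr3b, sec23b, arf5, cope, tmed10 and arf3b ended without 1 or more of them (edgeR adjusted p up to 0.251).

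A mixed list held targets of p53, a factor that answers DNA damage, and other apoptosis genes. Of its 31 members 8 rose and 1 fell (median 0.18). Those that rose included the apoptosis trigger pmaip1 (2.25, 3.18 and 2.18 CPM in controls, 6.07, 10.31 and 4.197 CPM at 3500 µM). Others were the growth arrest genes gadd45aa (1.16 log2) and cdkn1a (0.58), and mdm2 (0.38), the ligase that degrades p53. The anti-apoptotic gene bcl2a fell by 0.66 log2. The abundant targets ccng1 and sesn1 were at 469 and 211 CPM in controls and 484 and 244 CPM at 3500 µM, neither past the test. Of 44 Nrf2 targets and antioxidant genes, 7 rose and 0 fell (median 0.14). The glutathione peroxidase gpx1b measured 4.34, 3.31 and 4.24 CPM in controls and 12.3, 11.5 and 13.4 CPM at 3500 µM, with every exposed library above 2 times every control (log2 change 1.64 ± 0.18, edgeR adjusted p = 4.75e-05). Also higher were prdx1, fth1b and nfe2l2b, which encodes a copy of Nrf2 itself. The call of nfe2l2b held whichever of the 6 libraries was left out. Those of prdx1 and fth1b did not hold throughout (edgeR adjusted p up to 0.0967 and 0.251). The members gstp1 and prdx3 stood at 114 and 73.4 CPM in controls and 126 and 86.3 CPM at 3500 µM, without passing. Hypoxia-responsive genes numbered 10 higher and 1 lower of 47 (median 0.16). The kinase gene pdk2b, which slows pyruvate oxidation in mitochondria, went from 46.3, 34.1 and 38.8 CPM to 124, 190.4 and 109.7 CPM. The glycolytic regulator pfkfb4b rose by 1.15 log2, the iron-regulated gene ndrg1b by 1.07 and the vessel growth factor vegfaa by 0.79. Of 40 glycolysis genes 5 rose and 1 fell (median 0.20), with ldha, which makes lactate, at 199, 168 and 174 CPM in controls and 252, 248 and 228 CPM at 3500 µM. The glycolytic enzymes pfkmb, aldoaa, pgam1a and tpi1a rose by 0.64, 0.58, 0.54 and 0.45 log2, and pfkla fell by 0.63. The counts of 8 and 7 were 3, 3, 3, 2 and 5 without control replicate 1, control replicate 2, control replicate 3, 3500 µM replicate 1 and 3500 µM replicate 3 in turn, and 5 with no low-count filter, 3 with only these 6 libraries fitted, 5 with only the top transcript of each gene and 5 with upper quartile scaling for p53, and 2, 3, 3, 3 and 2 without control replicate 1, control replicate 2, control replicate 3, 3500 µM replicate 1 and 3500 µM replicate 3 in turn, and 3 with RLE size factors, 2 with only the top transcript of each gene and 3 with upper quartile scaling for Nrf2. The count of 5 higher in glycolysis ran from 2 to 8 with 1 library left out (it was 8 with only these 6 libraries fitted). The calls of pmaip1, gadd45aa, gpx1b, pdk2b, pfkfb4b, ndrg1b, vegfaa, pfkmb and pgam1a held whichever of the 6 libraries was left out. Those of cdkn1a, mdm2, ldha, bcl2a, aldoaa, tpi1a and pfkla ended without 1 or more of them (edgeR adjusted p up to 0.207).

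Genes of drug and foreign compound metabolism moved singly. Of 49 cytochrome P450 genes of families 1 to 4, 5 rose and 2 fell (median 0.09). The intestinal and hepatic enzyme cyp3a65 measured 93.4, 85.7 and 78.6 CPM in controls and 211, 182 and 164 CPM at 3500 µM, with a log2 change of 1.11 ± 0.32 (edgeR adjusted p = 0.0411). The low genes cyp2k6 and cyp2x8 rose by 2.78 and 1.6 log2, from means of 0.283 and 0.979 CPM. The P450 genes cyp2aa8 and cyp2p9 fell by 0.87 and 0.85 log2. The family 1 gene cyp1d1 stood at 12.9 CPM in controls and 13.7 CPM at 3500 µM and did not pass. Of 53 conjugation enzymes 3 rose, ugt1a1 (glucuronidation), gstt2 and gsto2 (glutathione transfer), by 0.98, 0.91 and 0.59 log2, and 0 fell. The 5.66% that rose is near the 5.14% of all genes tested. Among 31 receptors and transporters 3 rose and 2 fell. The haem synthesis enzyme alas1 went from 104, 83.0 and 99.6 CPM to 156, 158 and 154 CPM, the conjugate exporter abcc2 rose by 0.63 log2 and the electron donor cyb5a by 0.43, the multidrug exporter abcg2a fell by 0.81, and abcb11b, the bile salt export pump, fell from 6.86, 6.95 and 3.48 CPM to 1.88, 1.88 and 1.08 CPM. Of 16 genes of bile acid synthesis and transport, abcb11b was the 1 that fell and 0 rose, with cyp7a1, the rate-limiting enzyme, at 5.60 CPM in controls and 3.97 at 3500 µM (edgeR adjusted p = 0.395). The count of 5 higher P450 genes ran from 2 to 6 with 1 library left out (it was 3 with only the top transcript of each gene). That of 3 conjugation enzymes ran from 1 to 7 with 1 library left out (it was 7 with DESeq2 and 5 with only these 6 libraries fitted). The calls of cyp2k18, ugt1a1, abcb11b and abcg2a held whichever of the 6 libraries was left out, while that of abcc2 ended whichever was. Those of cyp3a65, cyp2k6, cyp2x8, gstt2, gsto2, alas1, cyp2aa8, cyp2p9, abcc2 and cyb5a ended without 1 or more of them (edgeR adjusted p up to 0.194).

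Genes of fatty acid oxidation were higher in part at 3500 µM. In the list of PPAR receptors, fatty acid oxidation and lipid droplets, 12 of 57 members rose and 0 fell (median 0.16). The mitochondrial uncoupling protein gene ucp3 measured 17.9, 19.8 and 19.6 CPM in controls and 72.9, 82.7 and 58.8 CPM at 3500 µM, and ucp2 76.8, 79.1 and 88.1 CPM in controls and 193, 178 and 156 CPM at 3500 µM. Neither gene had an exposed library near its control range, and the log2 changes were 1.91 ± 0.27 and 1.11 ± 0.13 (edgeR adjusted p = 0.000604 and 0.000125). The lipase inhibitor angptl4, a PPAR target in mammals, was at 80.6, 72.2 and 59.6 CPM in controls and 169.5, 161 and 123 CPM at 3500 µM. The carnitine palmitoyltransferases cpt1b and cpt1ab, which admit fatty acids to mitochondria, rose by 0.78 and 0.50 log2, the carnitine carrier slc25a20 by 0.39 and the beta-oxidation enzymes hadhb and acadm by 0.37 and 0.33. For ucp3 the mean was 42.7 CPM at 700 µM and 27.1 CPM at 7000 µM, the latter below 3500 µM (edgeR adjusted p = 0.00757). The lipase lpl and the long-chain dehydrogenase acadvl were at 75.9 and 82.7 CPM in controls and 85.04 and 88.3 CPM at 3500 µM, not past the test. The count of 12 was 5, 7, 7 and 7 without control replicate 1, control replicate 2, 3500 µM replicate 1 and 3500 µM replicate 3 in turn. The calls of ucp3, ucp2, angptl4 and cpt1ab held whichever of the 6 libraries was left out, while that of cpt1b ended whichever was. Those of cpt1b, slc25a20, hadhb and acadm ended without 1 or more of them (edgeR adjusted p up to 0.166).

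Genes of fatty acid building changed at particular steps. Of 44 members 6 rose and 2 fell (median 0.16). The desaturase fads2 measured 8.85, 5.89 and 7.84 CPM in controls and 21.7, 24.8 and 19.1 CPM at 3500 µM and the elongase elovl2 3.43, 4.102 and 3.24 CPM in controls and 8.64, 9.27 and 8.69 CPM at 3500 µM, the enzymes that make long polyunsaturated fatty acids. The groups did not overlap for either, and the log2 changes were 1.53 ± 0.18 and 1.31 ± 0.19 (edgeR adjusted p = 0.000134 and 0.000769). The phosphatidate phosphatase lpin1 rose by 0.96 log2, the elongation reductase hsd17b12a by 0.76, and the triglyceride enzymes dgat1a and agpat2 by 0.45 and 0.30. The acyltransferase mogat3b and the elongase elovl4a fell by 0.94 and 0.41 log2. The core enzymes fasn, acaca and scdb were at 124, 92.4 and 109 CPM in controls and 138, 104 and 124 CPM at 3500 µM, with none past the test. Of 10 fatty acid binding protein genes 4 rose and 1 fell: intestinal fabp2 went from 112, 111 and 79.9 CPM to 225, 151 and 189 CPM, intestinal fabp1b.1 rose by 1.27 log2, muscle-type fabp3 by 0.53 and brain-type fabp7a by 0.42, while hepatic fabp10a fell. The count of 6 higher in fatty acid building ran from 4 to 8 with 1 library left out. That of 4 binding protein genes ran from 1 to 6 with 1 library left out (it was 1 with only the top transcript of each gene). The calls of fads2, elovl2, lpin1, hsd17b12a and fabp3 held whichever of the 6 libraries was left out. Those of dgat1a, agpat2, mogat3b, elovl4a, fabp2, fabp1b.1 and fabp7a ended without 1 or more of control replicates 1, 2 and 3 and 3500 µM replicates 1 and 3 (edgeR adjusted p up to 0.241).

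Cholesterol synthesis genes were higher in part. Of 23 members 12 rose and 0 fell, with a median of 0.51. The first committed steps were represented by hmgcs1, at 31.2, 30.4 and 30.6 CPM in controls and 42.9, 41.9 and 54.7 CPM at 3500 µM, and the sterol-forming steps by cyp51, at 9.87, 9.20 and 10.4 CPM in controls and 23.0, 22.0 and 29.7 CPM at 3500 µM. Control and exposed values were separate for both genes, with log2 changes of 0.60 ± 0.13 and 1.34 ± 0.20 (edgeR adjusted p = 0.00906 and 0.000711). The squalene epoxidase sqleb measured 0.590, 0.331 and 0.353 CPM in controls and 1.44, 1.36 and 1.56 CPM at 3500 µM. The cyclase lss, the methylsterol oxidase msmo1, nsdhl and the isomerase idi1 rose by 1.12, 0.87, 0.71 and 0.35 log2. The rate-limiting reductases hmgcra and hmgcrb were at 25.5 and 28.8 CPM in controls and 35.0 and 29.0 CPM at 3500 µM and did not pass (edgeR adjusted p = 0.063 and 0.946). In the list of sterol sensing and uptake 3 of 22 members rose and 3 fell (median 0.12). The sterol sensor insig1 measured 19.6, 19.9 and 21.0 CPM in controls and 34.6, 41.6 and 44.8 CPM at 3500 µM (log2 change 1.00 ± 0.09, edgeR adjusted p = 1.1e-05), the receptor ldlrb rose by 0.45 and mylipb, a ligase that degrades such receptors, by 0.95. The cholesterol exporters abca1a and abcg1 fell by 0.39 ± 0.08 and 0.56 ± 0.11 log2, and scap, the escort of SREBP, by 0.62 ± 0.17. The count of 12 cholesterol genes was 5 and 3 without control replicate 2 and 3500 µM replicate 3 in turn, and 7 with only these 6 libraries fitted. The calls of cyp51, lss, msmo1, insig1, abca1a, abcg1 and mylipb held whichever of the 6 libraries was left out. Those of hmgcs1, nsdhl, idi1, ldlrb, scap and sqleb ended without 1 or more of them (edgeR adjusted p up to 0.127).

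Genes of secreted liver proteins were the group that fell most. Of 84 members of the hepatocyte list 37 fell and 0 rose, with a median log2 change of -1.19. The vitamin D binding protein gc measured 12.3, 13.2 and 5.36 CPM in controls and 2.07, 1.81 and 1.68 CPM at 3500 µM, the pentraxin crp2 8.10, 8.67 and 2.95 CPM in controls and 1.57, 1.17 and 0.660 CPM at 3500 µM, and transferrin tfa 120.2, 150.2 and 71.2 CPM in controls and 51.8, 38.1 and 33.2 CPM at 3500 µM. Every exposed library lay below every control, and in all 3 genes control replicate 3 was the lowest control. The log2 changes were -2.47, -2.54 and -1.47 (edgeR adjusted p = 0.00295, 0.00211 and 0.0272). The hepatocyte marker fabp10a went from 107, 92.4 and 58.1 CPM to 38.63, 28.6 and 15.3 CPM. Of the complement cascade, c9, a pore component, measured 21.1, 23.6 and 9.31 CPM in controls and 4.95, 3.89 and 5.22 CPM at 3500 µM, and c5, cfb, cfh and the C3 copies c3a.1, c3a.2 and c3a.3 fell by 1.33, 1.49, 1.86, 1.53, 2.14 and 2.03 log2. Clotting and protease control genes were among those that fell: fga (fibrinogen) by 1.71, plg (plasminogen) by 1.45, f7 by 1.49, serpinc1 (antithrombin) by 1.53 and serpina1 by 1.63. The thyroid hormone carrier ttr fell by 2.25 ± 0.41 and the copper carrier cp by 1.23 ± 0.31. In a bulk sample fewer cells of a type and less RNA per cell cannot be told apart.

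Not every member of the hepatocyte list followed. Whether the levels given next came from liver alone was not tested. The retinol carrier rbp4 was at 282, 269 and 255 CPM in controls and 352, 288 and 307 CPM at 3500 µM, and serpina10a at 142, 151 and 145 CPM and 153, 158 and 155 CPM, with exposed values just above the control range and no call (edgeR adjusted p = 0.571 and 0.509). The amino acid enzymes pah, hgd and tat stood at 35.3, 43.9 and 12.4 CPM in controls and 32.8, 44.3 and 14.8 CPM at 3500 µM, none past the test. The list took 0.170 ± 0.0308% of counts in controls and 0.114 ± 0.00926% at 3500 µM (SD, n = 3; exact permutation p = 0.1, the smallest possible). Against 7000 µM, where 2.44% of all genes were higher than at 3500 µM, 14 members were higher there and 3 lower. Against 700 µM, 2 members were higher at 3500 µM and 0 lower, with a median log2 difference of -0.38. Over all genes, 1.14% were higher at 3500 µM and 0.527% lower. The list's share was 0.102, 0.107 and 0.174% at 700 µM and 0.124, 0.114 and 0.105% at 3500 µM, so the groups overlapped. The exocrine pancreas, a neighbouring organ of the gut, had 0 of 29 digestive enzyme genes called by edgeR or by DESeq2 in either direction (median -0.20), and 0 of them had an unadjusted p under 0.05. Their scatter was wide, with log2 changes of -0.52 ± 0.73 in cpa5 and -0.78 ± 0.68 in cel.2. A copy of cela1.5 at -1.15 log2 did not pass (edgeR adjusted p = 0.305). The absence of calls thus does not set this organ apart from the liver. In 34 genes of intestine and endocrine pancreas 3 rose and 0 fell (median 0.20), among them the somatostatin gene sst1.1 by 0.58 log2. The count of 37 was 13, 16, 22 and 14 without control replicate 1, control replicate 2, 3500 µM replicate 1 and 3500 µM replicate 3 in turn. The calls of gc, crp2, c9, c3a.2, c3a.3, serpinc1 and ttr held whichever of the 6 libraries was left out. Those of tfa, fabp10a, c5, cfb, cfh, c3a.1, fga, plg, f7, serpina1, cp and sst1.1 ended without 1 or more of control replicates 1, 2 and 3 and 3500 µM replicates 1 and 3 (edgeR adjusted p up to 0.219).

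**Figure D4:**
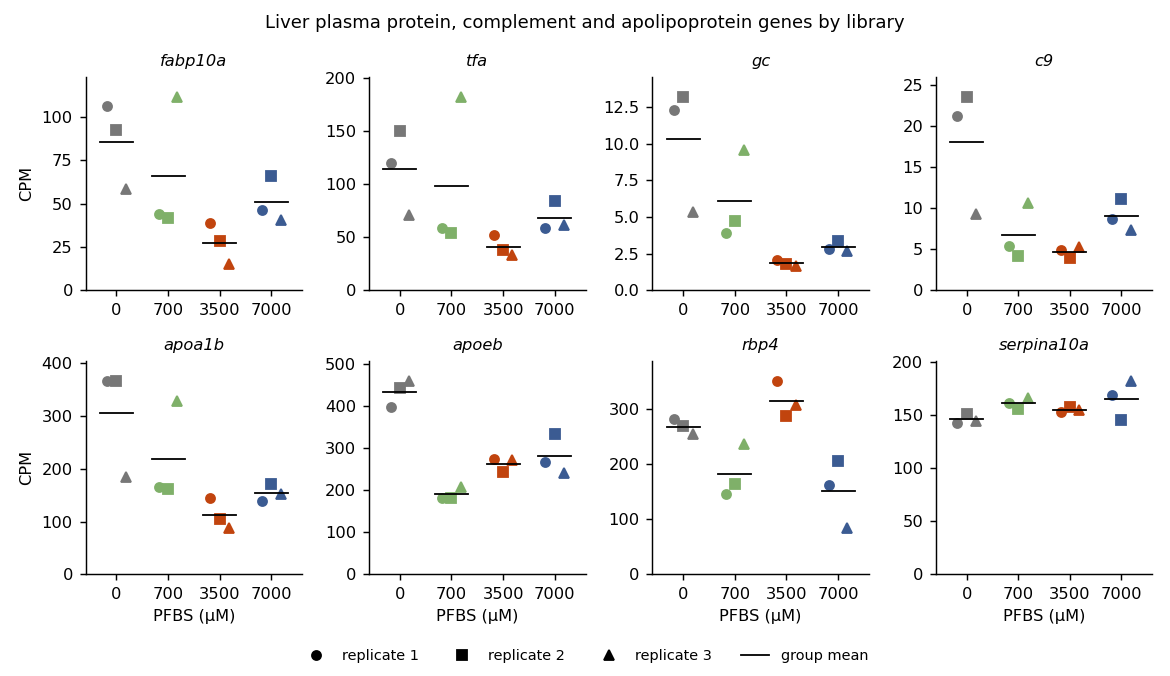
CPM of 8 genes of liver secretion in each library of the control (0), 700, 3500 and 7000 µM groups, with linear y axes from 0. Symbols give the replicate number and lines the group mean. For fabp10a, tfa, gc, c9 and apoa1b control replicate 3 lies below the other controls and above all 3 libraries at 3500 µM, while rbp4 and serpina10a lie just above the control range at 3500 µM.

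Lipoprotein genes split. Of 27 members 5 fell and 3 rose (median -0.08). The high-density lipoprotein gene apoa1b measured 366, 367 and 185 CPM in controls and 144, 105 and 87.7 CPM at 3500 µM, and apoeb, which is expressed in many tissues besides liver, 397, 442 and 459.8 CPM in controls and 274, 243 and 271 CPM at 3500 µM. Exposed libraries were below all controls for both, and levels fell by 1.45 ± 0.35 and 0.72 ± 0.11 log2 (edgeR adjusted p = 0.0187 and 0.00103). The very-low-density lipoprotein scaffolds apoba and apobb.2 fell by 1.71 and 2.34 log2, and the phospholipid transfer gene pltp by 0.48. The most abundant scaffold, apobb.1, was at 140.4 CPM in controls and 198 at 3500 µM (edgeR adjusted p = 0.383). The endothelial lipase lipg rose from 16.6, 15.7 and 13.1 CPM to 33.6, 34.9 and 26.3 CPM, with a log2 change of 1.06 ± 0.12 (edgeR adjusted p = 7.84e-05). The other risers were a pair of genes that share the symbol apoa4b.2 and are not given separately. The count of 5 lower ran from 2 to 6 with 1 library left out (it was 3 with only the top transcript of each gene). The calls of apoeb, apobb.2 and lipg held whichever of the 6 libraries was left out. Those of apoa1b, apoba and pltp ended without 1 or more of control replicates 1 and 2 and 3500 µM replicates 1 and 3 (edgeR adjusted p up to 0.206).

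Macrophage genes were lower in part. Of 42 members 8 fell and 0 rose, with a median of -0.26. The colony stimulating factor receptor csf1ra, required by macrophages, measured 8.15, 8.80 and 6.89 CPM in controls and 3.07, 4.41 and 2.22 CPM at 3500 µM, and the pore-forming mpeg1.1 7.24, 6.55 and 5.71 CPM in controls and 4.45, 4.02 and 3.18 CPM at 3500 µM. All exposed values were below all controls for both genes. The scavenger receptor marco fell by 1.00 ± 0.22 log2, the actin bundler lcp1 by 0.97 ± 0.22 and the marker mfap4 by 0.87 ± 0.25. Lysosomal genes that other cells also use, ctsd and ctsba, were at 135 and 64.5 CPM in controls and 150.4 and 69.3 CPM at 3500 µM, without a call. In 33 neutrophil genes 1 fell, the growth factor receptor csf3r by 2.16 log2, and 0 rose (median -0.14), and the lysozyme lyz was at 13.8 CPM in controls and 10.8 CPM at 3500 µM. Of 46 cytokine and NF-kB genes 2 rose and 2 fell (median -0.01): ptgs2b, a prostaglandin synthase that is also an immediate early gene, went from 7.56, 8.40 and 4.89 CPM to 15.6, 22.4 and 14.0 CPM and the inhibitor nfkbiab rose by 0.66 log2, while il6st and stat3 fell by 0.48 and 0.60. Of 12 genes in the galectin list 2 fell, the lectin lgals1l1 by 1.03 and the binding protein lgals3bpb, which the name pattern had admitted, by 1.21 log2. The count of 8 macrophage genes was 3, 4, 5 and 4 without control replicate 1, control replicate 2, 3500 µM replicate 1 and 3500 µM replicate 3 in turn. The calls of ptgs2b, nfkbiab and lgals3bpb held whichever of the 6 libraries was left out, while that of mfap4 ended whichever was. Those of csf1ra, mpeg1.1, marco, lcp1, mfap4, csf3r, il6st, stat3 and lgals1l1 ended without 1 or more of them (edgeR adjusted p up to 0.19).

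Respiratory chain genes of both genomes were higher in part. Of 13 genes encoded in mitochondrial DNA 12 rose and 0 fell, with a median of 0.60. The complex I subunit mt-nd2 measured 2487, 2711 and 2685 CPM in controls and 4097, 3999 and 5088 CPM at 3500 µM, and the complex IV subunit mt-co1 20749, 21515 and 22625 CPM in controls and 30652, 27707 and 39830.0 CPM at 3500 µM. Control and exposed libraries were separate, and exposed replicate 3 was the highest. The log2 changes were 0.74 ± 0.13 and 0.60 ± 0.18 (edgeR adjusted p = 0.00268 and 0.0428), and mt-nd5, at 3137 and 4260.2 CPM, did not pass (edgeR adjusted p = 0.0596). The 13 genes took 5.99, 6.36 and 6.63% of counts in controls and 7.99, 7.81 and 10.5% at 3500 µM, which is 6.33 ± 0.320% and 8.76 ± 1.49% (SD, n = 3; exact permutation p = 0.1, the smallest possible). Of 92 nuclear genes of oxidative phosphorylation 41 rose and 0 fell, with a median of 0.35. In complex I, ndufs6 measured 35.1, 34.9 and 36.2 CPM in controls and 52.3, 46.4 and 56.1 CPM at 3500 µM, and ndufa7 and ndufb6 rose by 0.60 and 0.48 log2. In complex III, uqcrb was at 105, 100.5 and 112 CPM in controls and 156, 139.6 and 154 CPM at 3500 µM, and complex IV and ATP synthase were represented by cox7c (0.43 log2) and atp5mc3a (0.39). The groups did not overlap for ndufs6 or uqcrb (edgeR adjusted p = 0.00728 and 0.00529). The large ATP synthase subunits atp5f1b and atp5fa1 were at 1126 and 928 CPM in controls and 1228 and 998 CPM at 3500 µM and did not pass.

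Cytosolic ribosomal protein genes moved by less. Of 84 members 10 rose and 0 fell, with a median of 0.28 and with rpl38, a large-subunit protein, at 215, 213 and 250.1 CPM in controls and 312, 264 and 375 CPM at 3500 µM. The most abundant member, rplp0, was at 3202 CPM in controls and 3666 CPM at 3500 µM (edgeR adjusted p = 0.404). These small proteins have short messages, and length moved with the result. The length class (quintile) of genes with the shortest transcripts had a median log2 change of 0.11 with 7.88% called higher and 2.43% lower, and the longest class a median of -0.029 with 3.29% higher and 5.44% lower. Of the oxidative phosphorylation genes 71 of 92, and of the ribosomal genes 76 of 84, belong to the shortest class, and the part of length in their changes was not tested. The share of counts of the nuclear respiratory genes was 0.952 ± 0.0227% in controls and 1.05 ± 0.0310% at 3500 µM (exact permutation p = 0.1), and that of ribosomal genes 7.83 ± 0.669% and 8.55 ± 0.611% (p = 0.2, exact permutation test). The count of 12 mitochondrial genes was 4, 6, 6 and 3 without control replicate 1, control replicate 2, 3500 µM replicate 1 and 3500 µM replicate 3 in turn. The count of 41 nuclear genes was 5, 8, 7 and 4 without control replicate 1, control replicate 2, 3500 µM replicate 1 and 3500 µM replicate 3 in turn, and 25 with only the top transcript of each gene and 26 with upper quartile scaling. The count of 10 ribosomal genes was 0, 0, 16, 0, 37, 0 and 20 without control replicate 1, control replicate 2, control replicate 3, 3500 µM replicate 1, 3500 µM replicate 2, 3500 µM replicate 3 and 7000 µM replicate 3 in turn, and 20 with DESeq2, 5 with RLE size factors, 2 with no low-count filter, 1 with only these 6 libraries fitted, 3 with only the top transcript of each gene and 2 with upper quartile scaling. The calls of mt-nd2 and uqcrb held whichever of the 6 libraries was left out. Those of mt-co1, ndufs6, ndufa7, ndufb6, cox7c, atp5mc3a and rpl38 ended without 1 or more of control replicates 1, 2 and 3 and 3500 µM replicates 1 and 3 (edgeR adjusted p up to 0.251).

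**Figure D5:**
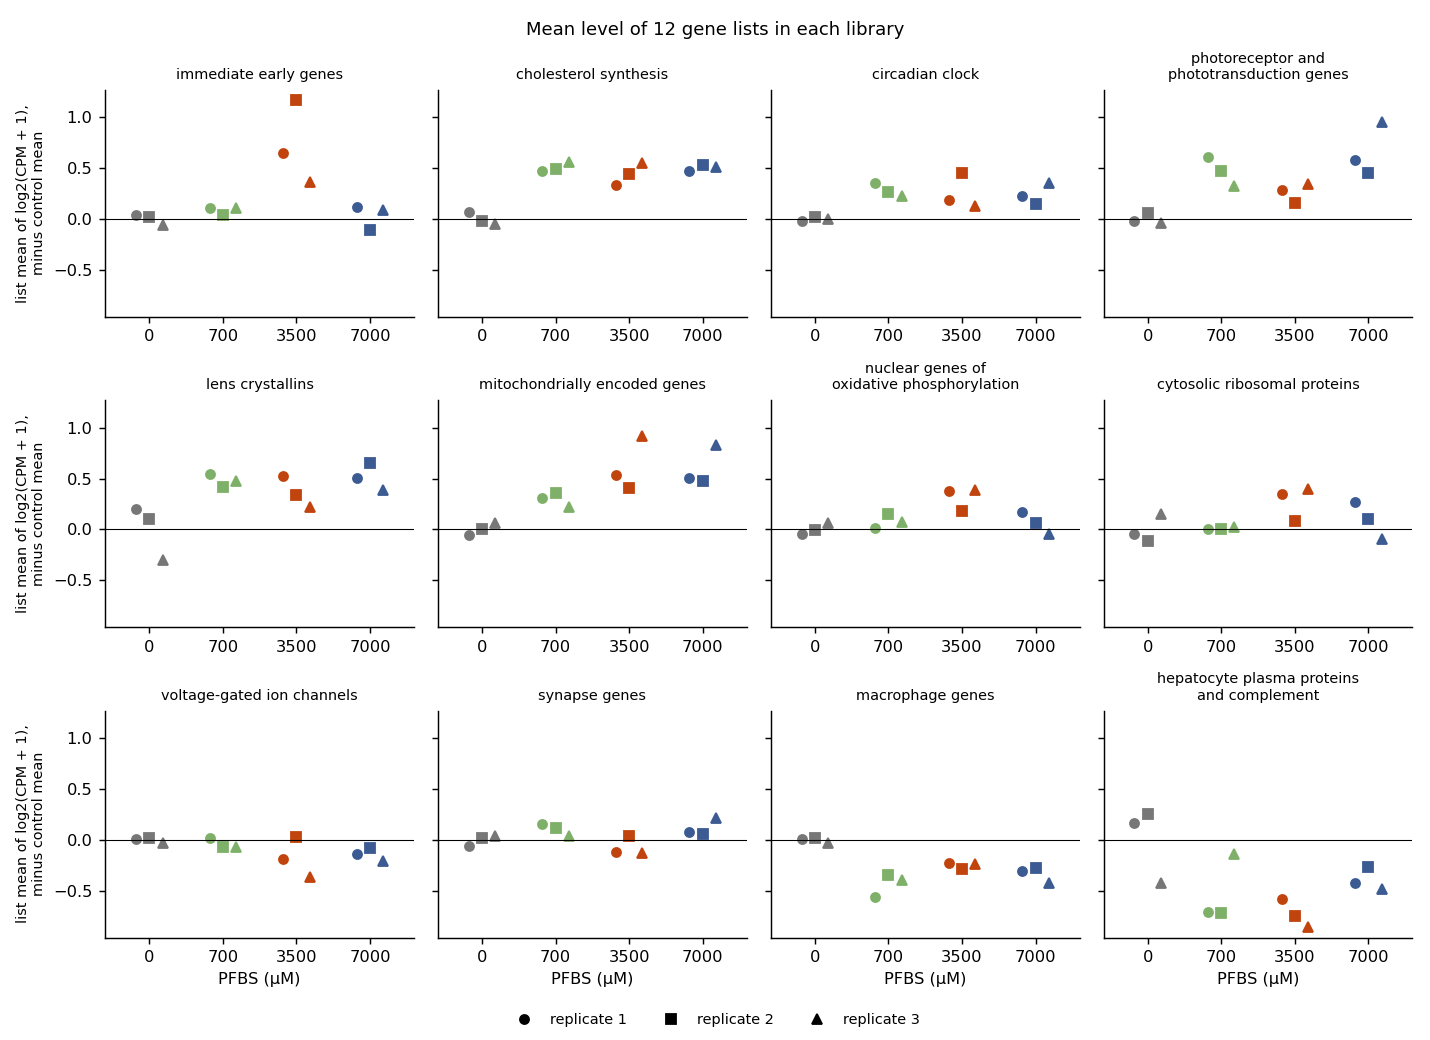
Mean log2(CPM + 1) over the tested members of 12 gene lists in each library of the control (0), 700, 3500 and 7000 µM groups, as the difference from the mean of the controls. Symbols give the replicate number. At 3500 µM immediate early genes lie 0.36 to 1.17 above the control mean and hepatocyte genes 0.58 to 0.86 below it, where control replicate 3 lies below the other controls.

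Eye genes were higher in part. Of 71 photoreceptor and phototransduction genes 18 rose and 1 fell, with a median of 0.27. The rod pigment rho measured 2449, 2537 and 2623 CPM in controls and 3690.3, 3345 and 3718 CPM at 3500 µM, and the rod transducin gnat1 155, 183 and 169.6 CPM in controls and 286, 239 and 319 CPM at 3500 µM. Both genes were above the control range in every exposed library, by log2 changes of 0.50 ± 0.15 and 0.73 ± 0.15 (edgeR adjusted p = 0.0404 and 0.00811). The rod phosphodiesterase subunits pde6a, pde6b and pde6ga rose by 0.56, 0.48 and 0.81 log2, and saga, an arrestin, by 0.46. The guanylate cyclase activators guca1c and guca1e rose by 1.09 and 2.06. Some cone genes did not pass: opn1sw1, the ultraviolet opsin, was at 2713 CPM in controls and 3067 CPM at 3500 µM, and the cone transducin gnat2 at 1367 and 1679 CPM (edgeR adjusted p = 0.508 and 0.245). The 1 gene that fell was the red opsin copy opn1lw1, from 18.6, 23.1 and 17.7 CPM to 10.4, 8.88 and 14.3 CPM, while its neighbour opn1lw2 was at 1267 and 1672 CPM without a call. Against 7000 µM, where 2.44% of all genes were higher than at 3500 µM, 24 members were higher there and 0 lower. The list took 1.64, 1.77 and 1.65% of counts in controls and 1.86, 1.85 and 2.06% at 3500 µM. It took more at both neighbours, 2.83, 2.56 and 2.24% at 700 µM and 2.64, 2.44 and 3.68% at 7000 µM. Replicate 3 was the highest at 7000 µM. Between 3500 and 700 µM 0 members were called, where 1.66% of all genes tested were. At that share a list of 71 would hold few calls, so the 0 does not show the 2 groups to be alike.

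Of 48 crystallins, the refractive proteins of the lens, 17 rose and 0 fell, with a median of 0.50. All 17 were gamma crystallins, which are near-identical copies whose reads may be split between them, so their separate values are uncertain. As an example crygm2d7 measured 549, 562 and 445 CPM in controls and 985, 762 and 831 CPM at 3500 µM. The beta crystallins crybb1 and cryba4, at 1863 and 990.1 CPM in controls and 2329.6 and 1095 CPM at 3500 µM, did not pass. The list took 2.21, 2.16 and 1.48% of counts in controls and 2.73, 2.42 and 2.08% at 3500 µM, groups that overlapped (exact permutation p = 0.3), and 39 of the 44 with a length belong to the shortest length class. In 50 genes of the visual cycle and retinoid metabolism 3 rose and 0 fell (median 0.21), a share near the 5.14% of all genes, namely cyp26a1, which degrades retinoic acid, by 0.68 log2, rdh10a, which helps to make it, by 0.29, and the retinal G protein-coupled receptor gene rgrb by 0.60. The count of 18 photoreceptor genes was 5, 9, 11, 6 and 6 without control replicate 1, control replicate 2, control replicate 3, 3500 µM replicate 1 and 3500 µM replicate 3 in turn. The count of 17 crystallins was 8, 11, 6, 6 and 8 without control replicate 1, control replicate 2, control replicate 3, 3500 µM replicate 1 and 3500 µM replicate 3 in turn, and 9 with only the top transcript of each gene. The count of 3 visual cycle genes ran from 1 to 9 with 1 library left out (it was 5 with DESeq2, 1 with RLE size factors, 5 with only these 6 libraries fitted and 1 with upper quartile scaling). The calls of guca1c, guca1e, crygm2d7 and cyp26a1 held whichever of the 6 libraries was left out. Those of rho, gnat1, pde6a, pde6b, pde6ga, saga, opn1lw1, rdh10a and rgrb ended without 1 or more of them (edgeR adjusted p up to 0.229).

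In the nervous system most genes did not pass, and those that did were mixed in direction. Of 60 neurodevelopment markers 2 rose and 5 fell (median -0.01). The neurotrophin bdnf, which neurons release with activity, measured 11.2, 15.7 and 14.0 CPM in controls and 25.2, 32.9 and 24.5 CPM at 3500 µM. No exposed value overlapped the controls, and the log2 change was 1.02 ± 0.16 (edgeR adjusted p = 0.00101). The motor and sensory neuron factor isl2b rose by 0.52 log2. The receptor genes of bdnf, ntrk2a and ntrk2b, fell by 0.70 ± 0.18 and 0.92 ± 0.27. The pan-neuronal RNA-binding gene elavl3 measured 321, 333 and 325 CPM in controls and 215, 298 and 211 CPM at 3500 µM, the microtubule gene mapta 87.3, 89.7 and 89.5 CPM in controls and 54.2, 80.2 and 43.0 CPM at 3500 µM, and the adhesion gene ncam1a fell by 0.61 log2. In these falling genes exposed replicate 2 lay nearest the controls. The radial glia gene gfap was at 171 CPM in controls and 206 CPM at 3500 µM (edgeR adjusted p = 0.36), the neuronal gene elavl4 at 331 and 285 CPM, and ache, which breaks down acetylcholine, at 218 and 222 CPM. Of 38 glia and myelin genes 6 rose and 1 fell (median 0.11), with the glutamine synthetase glula at 428, 472 and 493 CPM in controls and 606, 682 and 658 CPM at 3500 µM, and mbpa, the myelin basic protein, at 62.5 and 78.3 CPM without a call. The count of 5 lower neurodevelopment genes ran from 0 to 11 with 1 library left out (it was 1 with only these 6 libraries fitted and 2 with only the top transcript of each gene). That of 6 higher glia genes ran from 0 to 7 with 1 library left out (it was 3 with only these 6 libraries fitted).

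Genes of excitability and of synapses fell in small sets. Of 78 voltage-gated channel genes 12 fell and 2 rose, with a median of -0.22. The calcium channel cacna1ab measured 27.2, 24.3 and 26.2 CPM in controls and 15.2, 21.8 and 14.0 CPM at 3500 µM, and the sodium channel scn8ab 24.1, 23.5 and 21.6 CPM in controls and 14.96, 18.7 and 14.6 CPM at 3500 µM. Their log2 changes were -0.61 and -0.52 (edgeR adjusted p = 0.0141 and 0.0178). The potassium channels kcnq2b, kcnq3 and kcnc3a fell by 0.79, 0.96 and 0.74 log2. The most abundant members, scn8aa and cacna1aa, were at 147 and 101 CPM in controls and 133 and 80.2 CPM at 3500 µM and did not pass. The channels that rose were scn12aa and kcnq1.1, by 0.63 and 0.94 log2. Of 52 synapse genes 8 fell and 1, syngr3b, rose (median 0.03, and -0.02 with upper quartile scaling). The calcium sensor syt2a measured 6.17, 5.62 and 4.60 CPM in controls and 2.38, 3.37 and 1.32 CPM at 3500 µM. The vesicle fusion gene vamp2 went from 71.8, 77.7 and 71.8 CPM to 47.1, 63.7 and 35.7 CPM and the scaffold bsnb fell by 0.47 log2, nlgn1 (postsynaptic adhesion) by 0.80 and camk2a, a kinase of plasticity, by 0.72. The abundant members syt1a, snap25a and sv2a were at 640.4, 448 and 362 CPM in controls and 724, 473 and 343 CPM at 3500 µM, none past the test. In 91 transmitter genes 5 rose and 4 fell (median 0.05, and 0.00 with upper quartile scaling), with the peptide npy higher by 0.67 log2, the dopamine receptor drd3 by 0.64 and the glycine receptor subunits glra3 and glrba by 0.53 and 0.45. The serotonin transporter slc6a4a was lower by 0.64, the glutamate loader slc17a6a by 1.04 and the GABA transporter slc6a1a by 0.51. The longest length class holds 29 of 73 channel genes and 20 of 51 synapse genes with a known length, and the part of length was not tested. The count of 12 channel genes that fell was 1, 3, 6, 0, 22 and 0 without control replicate 1, control replicate 2, control replicate 3, 3500 µM replicate 1, 3500 µM replicate 2 and 3500 µM replicate 3 in turn, and 6 with only these 6 libraries fitted and 6 with only the top transcript of each gene. The count of 8 synapse genes that fell was 1, 1, 1 and 1 without control replicate 1, control replicate 2, 3500 µM replicate 1 and 3500 µM replicate 3 in turn, and 5 with only these 6 libraries fitted. The count of 5 higher transmitter genes ran from 0 to 6 with 1 library left out (it was 3 with RLE size factors, 3 with no low-count filter, 2 with only these 6 libraries fitted, 2 with only the top transcript of each gene and 3 with upper quartile scaling). That of 4 lower ones ran from 0 to 11 with 1 library left out (it was 2 with only these 6 libraries fitted and 1 with only the top transcript of each gene). The calls of bdnf, nlgn1 and scn12aa held whichever of the 6 libraries was left out, while that of npy ended whichever was. Those of isl2b, ntrk2a, ntrk2b, elavl3, mapta, ncam1a, glula, cacna1ab, scn8ab, kcnq2b, kcnq3, kcnc3a, vamp2, bsnb, camk2a, npy, slc6a4a, kcnq1.1, syt2a, drd3, glra3, glrba, slc17a6a and slc6a1a ended without 1 or more of them (edgeR adjusted p up to 0.223).

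Hormone axes changed at single genes. Of 27 genes of growth hormone and insulin-like growth factor signalling 8 rose and 3 fell (median 0.13). The feedback gene cish measured 13.6, 17.4 and 13.5 CPM in controls and 37.4, 58.1 and 26.9 CPM at 3500 µM, with no overlap, and the insulin receptor substrates irs2b and irs2a rose by 0.68 and 0.49 log2, the binding protein igfbp1a by 0.84 and the growth factor igf1 itself by 0.82. The binding protein igfbp2a, which the liver secretes, fell by 0.79 log2, the growth hormone releasing hormone receptor ghrhrb by 1.35 and the receptor igf1ra by 0.65. In the thyroid axis 2 of 18 genes rose and 3 fell (median -0.17): the activating deiodinase dio2 rose from a mean of 1.16 CPM to 2.45 CPM, klf9 is shared with the glucocorticoid list and ttr with the liver list, and the thyroid and forebrain factors nkx2.4b and nkx2.4a fell by 2.14 and 0.98 log2. The gene nkx2.4b was near the floor, at 0.429, 0.265 and 0.471 CPM in controls and 0.0626, 0.130 and 0.0600 CPM at 3500 µM. The receptors thrb and thraa were at 89.6 and 7.66 CPM in controls and 97.5 and 8.73 CPM at 3500 µM, not past the test. The count of 8 higher in the growth hormone axis ran from 4 to 8 with 1 library left out. In the thyroid axis the count of 2 higher ran from 0 to 2 and that of 3 lower from 1 to 3. The 3 lower became 1 with the replicate block, 1 with only these 6 libraries fitted and 1 with only the top transcript of each gene. The calls of cish, irs2b and ghrhrb held whichever of the 6 libraries was left out, while that of igf1 ended whichever was. Those of irs2a, igfbp1a, igfbp2a, igf1ra, dio2, igf1, nkx2.4b and nkx2.4a ended without 1 or more of them (edgeR adjusted p up to 0.187).

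Muscle, skin and skeleton had few called genes in the fit of all 18 libraries. Of 121 skeletal muscle genes 4 rose and 1 fell, with a median of -0.03. The titin cap gene tcap measured 17.9, 18.3 and 17.9 CPM in controls and 46.6, 59.8 and 52.4 CPM at 3500 µM, and the muscle atrophy ligases fbxo32 and trim63a rose by 1.35 and 0.93 log2 and the calcium buffer pvalb6 by 0.39, while the channel subunit cacnb1 fell by 0.67. The abundant actin actc1b was at 26104 CPM in controls and 28037 CPM at 3500 µM, and the parvalbumin pvalb1 at 10376 and 12875 CPM, without a call. The muscle list took 17.7 ± 0.487% of counts in controls and 16.6 ± 1.41% at 3500 µM (exact permutation p = 0.4). At 7000 µM, where 3.84% of all genes were called lower than at 3500 µM, 57 of the 121 were lower and 2 higher. The list gave 10.9, 10.8 and 4.19% of counts in the 3 libraries at 7000 µM. In heart genes 0 of 13 were called by edgeR or by DESeq2, and 1 had an unadjusted p under 0.05. Of 31 keratins and envelope genes 1 fell, krt1-19d by 1.25 log2 (median -0.26). Of 54 collagens 1 rose and 1 fell, col7a1l by 0.80 (median -0.37). Of 51 cartilage and bone genes 3 fell (median -0.27). Every exposed library lay below every control in 21 of 54 collagens, 12 of 31 keratin list genes and 14 of 51 cartilage and bone genes. Those above every control numbered 3, 0 and 5, beside 13.5% below and 16.2% above over all genes. The longest length class holds 37 of 53 collagens with a known length, and the part of length was not tested. The cartilage collagen col9a1b rose from 147, 156 and 129 CPM to 326, 277 and 236 CPM, and col2a1a was at 726 and 1028 CPM (edgeR adjusted p = 0.0965). The chondrocyte factor sox9a fell by 0.55 log2, the matrix gene fn1b by 0.87 and the proteoglycan gene bgnb by 0.50. Of 40 ionocyte genes 2 rose, among them the ammonia transporter rhcga, at 21.5, 30.2 and 19.6 CPM in controls and 67.6, 44.5 and 41.6 CPM at 3500 µM, and 3 fell, the ion carriers clcn2b, slc4a2b and slc8a1b, by 1.09, 1.04 and 0.90 log2. Of 45 erythrocyte genes 3 membrane skeleton genes fell (median -0.12), among them ank1b by 0.74 and epb41a by 0.44, while the globin hbae3 was at 339.9 and 312 CPM without a call. Cell cycle genes numbered 1 higher (slbp, 0.45 log2) and 1 lower (bub1, -0.37 log2) of 88 (median 0.04, and -0.01 with upper quartile scaling), with mki67 at 152 and 141 CPM, and proteasome subunits 1 higher (psmd8) and 1 lower (psmd2) of 51 (median 0.15). Of 12 genes of the reproductive axis 1 rose, the steroid reductase srd5a2a by 0.89 log2, and 1 fell, the hormone carrier shbg, made in liver, by 1.70. The count of 1 lower collagen ran from 0 to 4 with 1 library left out (it was 4 with DESeq2, 2 with RLE size factors, 2 with no low-count filter, 15 with only these 6 libraries fitted, 0 with only the top transcript of each gene and 3 with upper quartile scaling). That of 1 lower keratin list gene ran from 0 to 3 with 1 library left out (it was 6 with only these 6 libraries fitted and 0 with only the top transcript of each gene). That of 3 lower cartilage and bone genes ran from 0 to 4 with 1 library left out (it was 6 with DESeq2, 8 with only these 6 libraries fitted and 1 with only the top transcript of each gene). The count of 4 higher muscle genes ran from 1 to 9 with 1 library left out (it was 8 with only these 6 libraries fitted, 2 with only the top transcript of each gene and 2 with upper quartile scaling). The call of tcap held whichever of the 6 libraries was left out, while those of trim63a and srd5a2a ended whichever was. Those of fbxo32, trim63a, col9a1b, sox9a, rhcga, srd5a2a, shbg, pvalb6, cacnb1, krt1-19d, col7a1l, fn1b, bgnb, clcn2b, slc4a2b, slc8a1b, ank1b, epb41a, slbp and bub1 ended without 1 or more of them (edgeR adjusted p up to 0.186).

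Set against its neighbours, 3500 µM differed in 350 genes from 700 µM (1.66%, 239 higher and 111 lower) and 7000 µM differed in 1321 genes from 3500 µM (6.28%, 513 higher and 808 lower). These comparisons share the 3500 µM libraries with each other and with the comparison to control. Against 700 µM the count was 50 without 3500 µM replicate 1, 1469 without replicate 2 and 182 without replicate 3, and it was 11, 41 and 32 without 700 µM replicates 1, 2 and 3 and 851 without 7000 µM replicate 3. Against 7000 µM it was 331 without 3500 µM replicate 1 and 287 without 7000 µM replicate 3. The export gene abcg1 was at 23.3, 20.9 and 20.4 CPM at 700 µM, 16.1, 17.2 and 16.7 CPM at 3500 µM and 28.0, 27.02 and 33.8 CPM at 7000 µM, lower at 3500 µM than at 7000 µM (edgeR adjusted p = 0.000753). The coat gene sec23b was at 50.5, 47.0 and 56.6 CPM, 93.3, 81.2 and 69.4 CPM and 39.9, 43.2 and 39.0 CPM in that order, higher at 3500 µM than in either neighbour (edgeR adjusted p = 0.0224 and 0.000753).

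Counts of single transcripts gave a narrower picture than sums per gene. Of 31721 transcripts tested 1039 (3.28%) were called, 580 higher (1.83%) and 459 lower (1.45%). With only these 6 libraries fitted, 154 transcripts were called. Of the 1039 called in the fit of all 18 libraries, 849 belong to genes called in the sum and 190 do not. In that fit 1169 called genes had no called transcript. In 28 called transcripts the change was at least 2-fold while the gene's own adjusted p was above 0.5. A transcript of rlf, a zinc finger gene, had no count in any exposed library and 11.2, 14.9 and 11.8 CPM in controls, while the gene as a whole had a log2 change of -0.10 (edgeR adjusted p = 0.694). A transcript of dpp6b, which accompanies potassium channels, had no count in controls and 4.53, 3.12 and 6.62 CPM at 3500 µM, and its gene a log2 change of 0.00 (edgeR adjusted p = 0.995). How reads that match several transcripts were shared is not given in the sources used here, so such values are uncertain. Of 1029 transcripts annotated as retained introns 27 were called, 17 higher and 10 lower. The authors' deposited table called 1399 transcripts for this comparison, of which 324 were also called by edgeR on transcripts, all with the same sign. That is 23.2% of the authors' calls and 31.2% of those made here, and 136 of the authors' transcripts were not tested here. By the authors' q-values, 1163 transcripts were under 0.05, fewer than the 1399 they called. Their calls thus included transcripts without a q under 0.05, the threshold used here for adjusted p. The overlap therefore does not compare the methods at the same threshold.

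A few genes were read almost solely in 1 group. The jacalin-family lectin gene jac9 summed to 241 counts over the 3 controls and to 0 at 3500 µM, at least 76.1-fold lower against a floor of 3 counts over the group with TMM-scaled library sizes. Its relative jac8 summed to 85 and 3 counts. The homeobox gene evx1 summed to 0 counts in controls and 66 at 3500 µM, at least 23.2-fold higher against the same floor. Floors cover counting error only.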

How the data were processed

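Total RNA from whole larvae was extracted with RNAzol and sequenced, per the labels' protocols. The authors deposited read counts and RPKM values per transcript, per the file headers, with a log2 fold change and a p-value and q-value for this comparison. The aligner, counter, strand setting, genome build and annotation release were not given in the sources used here. Deposited counts were summed per gene, and RPKM served only to recover transcript lengths. The edgeR 4.0.16 quasi-likelihood test (R 4.3.3) was fitted to all 18 libraries with a mean per group, filterByExpr, TMM scaling and two-sided Benjamini-Hochberg adjustment over 21046 genes, threshold 0.05. List values per library are means of log2(CPM + 1). The fit was tested on simulated data with known changes in genes above 5 CPM. Of 50 rises and 50 falls of 0.5 log2 it recovered 17 and 16, and of those of 1 log2 it recovered 48 and 44. Of 130 calls 5 were false. The simulated counts varied independently between genes, without the shifts of whole lists seen in single real libraries. These rates therefore do not carry over to the real comparison. Alternatives were DESeq2 1.42.0, RLE and upper quartile scaling, no low-count filter, a replicate block, the compared libraries alone, the top transcript per gene and each library left out. Shares of counts were compared by exact permutation tests, whose smallest p is 0.1.

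The comparison, the 52 gene lists and their members (2485 genes matched, 2286 tested, 120 names unmatched) were chosen with earlier results of these data known. The 15 largest rises and 15 largest falls were named among called genes that have a symbol, reach 5 CPM in either group and have all exposed samples outside the control range. From each list up to 6 called members were named by size. Other named members, and those outside the lists, were chosen after their values were seen. Some members counted in the lists are not reported here by name.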

Additional observations from a re-analysis of the deposited data

How the results depend on the processing

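Against control, the count of 1994 genes became 1330 with only these 6 libraries fitted, 1858 with RLE size factors, 1727 with no low-count filter, 2242 with DESeq2, 1757 with the replicate block and 1377 with only the top transcript of each gene, all within 1.5 times. With 1 library left out the counts ran from 478 to 3333 against control, from 11 to 1469 for 3500 against 700 µM, from 287 to 1726 for 7000 against 3500 µM and from 219 to 2806 for transcripts. Fitting only the compared libraries gave 154 transcripts for 3500 µM against control. For 7000 against 3500 µM it gave 206 genes. Transcripts numbered 627 with no low-count filter and 2398 with DESeq2, and DESeq2 gave 884 genes for 3500 against 700 µM. Over 523 named or list genes called against control (520 with a value in DESeq2, 521 with only these 6 libraries), directions held in the settings run except for mapk6 (-0.053 log2) and ndufs7 (-0.061) with only the top transcript, and the cause was not tested. Leaving out control replicates 1, 2 and 3 in turn ended 322, 287 and 136 of these calls, and leaving out those at 3500 µM ended 282, 57 and 285. Upper quartile scaling ended 78, RLE 39, no low-count filter 50, DESeq2 9, the block 58, the fit of these 6 libraries 129 and the top transcript setting 146. Deviations of same-numbered control and exposed samples correlated at 0.103, 0.0461 and 0.172, and those of differently numbered ones at -0.142 to 0.0613. For each control the same-numbered value was the highest. No label states a pairing, so the main fit has none, and the count with the replicate block was 1757. Over nuclear counts the difference in share went from 0.0955 to 0.132 percentage points for nuclear respiratory genes, by more than the replicate SD, and from -1.1 to -0.704 for muscle genes, by less than it. With 3 samples a group and a biological coefficient of variation of 12.9%, an uncalled gene is not shown to be unchanged.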

Other observations

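Of the 1994 called genes 1551 were in no list, and those named here were picked from the 40 largest changes in each direction after their values were seen. Among those that rose was prkg1b, a cGMP-dependent protein kinase, at 23.5, 26.1 and 23.3 CPM in controls and 98.2, 90.7 and 79.1 CPM at 3500 µM. The groups did not overlap, and its log2 change was 1.88 ± 0.20 (edgeR adjusted p = 4.75e-05). The arginase arg2 rose by 1.22 ± 0.15 log2, the carnitine synthesis enzyme bbox1 by 1.03 ± 0.11 and the antiproliferative gene tob1a by 0.98 ± 0.11. The mitochondrial ATP-Mg and phosphate carrier slc25a25a rose by 1.28, the glutaminase gls2b by 1.43, and klhl38b and the muscle ankyrin repeat gene ankrd1b by 1.72 and 1.31. The forebrain factor foxg1b measured 102, 123 and 118 CPM in controls and 202, 217 and 243 CPM at 3500 µM, and tbxta, a notochord factor also known as no tail, 11.05, 9.39 and 7.48 CPM in controls and 23.4, 19.96 and 19.5 CPM at 3500 µM. All exposed values of both genes exceeded all controls. The splicing factor srsf3a was low in 2 controls, at 0.590, 0.397 and 3.42 CPM, and 8.39, 8.88 and 4.44 CPM at 3500 µM. The calls of prkg1b, arg2, bbox1, tob1a, slc25a25a, gls2b, klhl38b and tbxta held whichever of the 6 libraries was left out. Those of ankrd1b, foxg1b and srsf3a ended without 1 or more of them (edgeR adjusted p up to 0.163).

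Among those that fell were RNA-binding proteins found in neurons. The splicing regulator nova1 measured 42.2, 40.8 and 41.3 CPM in controls and 16.5, 25.9 and 12.5 CPM at 3500 µM, and celf2 61.7, 63.2 and 57.6 CPM in controls and 30.0, 40.9 and 22.4 CPM at 3500 µM. Exposed replicate 2 was the nearest to controls in both, and the groups did not overlap. The log2 changes were -1.18 and -0.97 (edgeR adjusted p = 0.00165 and 0.0014). The relative celf5a fell by 0.99 log2, the axonal adhesion gene l1camb by 0.97, the GABA-B receptor gabbr2 by 0.97 and the chloride exporter slc12a5a by 0.96. The DNA methyltransferase dnmt3aa fell by 1.24. The methionine salvage enzyme mri1 went from 13.7, 15.9 and 14.7 CPM to 3.38, 9.59 and 4.62 CPM, tyr, the tyrosinase of pigment cells, from 16.0, 14.2 and 10.31 CPM to 7.83, 6.74 and 4.68 CPM, and the mucin muc5.1 from 26.0, 25.3 and 17.97 CPM to 10.6, 13.9 and 8.51 CPM. In tyr and muc5.1 control replicate 3 was the lowest control. The calls of nova1, celf2, celf5a, l1camb and mri1 held whichever of the 6 libraries was left out. Those of gabbr2, slc12a5a, dnmt3aa, tyr and muc5.1 ended without 1 or more of control replicates 1, 2 and 3 and 3500 µM replicates 1 and 3 (edgeR adjusted p up to 0.162).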
